A study of Mus musculus with 69 samples.

Results

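Branched-chain amino acid catabolism was followed through 9 genes (Bcat2, Bckdha, Bckdhb, Dbt, Ivd, Hibadh, Aldh6a1, Pcca and Pccb) in the livers of old mice fed rapamycin or a control diet. All probes annotated to these genes were taken, which gave 13 of the 25697 probes (9 of 16593 named genes) on the array, and 12 of the 13 were among the 12442 probes with enough signal to be tested. Dbt had 3 probes, Pcca and Pccb had 2 each, and the other members had 1 each.

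One liver of each of 69 C57BL6/J mice was measured at 25 months of age on Illumina MouseRef-8 bead arrays. The mice were 21 Rapa females and 16 control females, and 13 Rapa males and 19 control males. Rapa mice ate 14 ppm of rapamycin, which inhibits the kinase mTOR, in a diet with eudragit, the polymer that coats the drug, starting at 4 months of age and for 21 months. Control mice ate the eudragit diet without the drug. The sample titles divide the Rapa males into 6 Rapa-2 males and 7 Rapa-1 males, and that division was made in the study from these same arrays, by their expression. Values of Rapa-2 and Rapa-1 males are therefore given as a description, with no p-value. By the labels, every Rapa-1 male also had a lower animal number than every Rapa-2 male. The division thus cannot be told apart from the order of animal numbers. Within each sex, every Rapa mouse also had a lower animal number than every control mouse. Diet therefore cannot be told apart from that order either. Since each array is 1 liver, the spread is between mice, and fewer cells of a type and less RNA per cell cannot be told apart in such tissue samples.

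Leucine, isoleucine and valine are broken down in mitochondria by a shared start and separate ends. Bcat2, the mitochondrial transaminase, removes the amino group, a step known to be low in liver and high in muscle. The resulting keto acids are committed to breakdown by the branched-chain keto acid dehydrogenase complex, which liver holds in abundance. Bckdha and Bckdhb encode the alpha and beta subunits of its decarboxylase, and Dbt encodes its transacylase core. Ivd oxidizes isovaleryl-CoA on the leucine branch. Hibadh and Aldh6a1 act late on the valine branch, as 3-hydroxyisobutyrate dehydrogenase and methylmalonate semialdehyde dehydrogenase. Pcca and Pccb encode the subunits of propionyl-CoA carboxylase, which receives the propionyl-CoA that valine and isoleucine yield.

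Aldh6a1 and Bckdhb are described first below, and their promoters are shown so that the sequence around their starts can be read beside the values. The RefSeq table gives 300 bases a start, 250 before it and 50 after it, on build GRCm38.p6, for 8 of the 9 members. Aldh6a1 has entries at chr12:84450975-84451274 (minus strand, start 1) and chr12:84448268-84448567 (minus strand, start 2), and Bckdhb at chr9:83924887-83925186 (plus strand, start 1) and chr9:83948531-83948830 (plus strand, start 2). Capitals mark the CCAAT box (CCAAT) and the GC box (GGGCGG) on either strand. The TATA box (TATAAA) and the STAT5 site (TTCNNNGAA) were also searched on both strands, and no match of different motifs overlapped.
Bckdhb start 1: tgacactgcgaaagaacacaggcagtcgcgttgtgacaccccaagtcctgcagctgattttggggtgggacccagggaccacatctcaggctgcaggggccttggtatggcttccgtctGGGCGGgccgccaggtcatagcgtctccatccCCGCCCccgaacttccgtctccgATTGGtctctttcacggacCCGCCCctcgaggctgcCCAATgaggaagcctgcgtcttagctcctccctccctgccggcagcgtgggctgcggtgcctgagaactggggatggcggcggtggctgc
Bckdhb start 2: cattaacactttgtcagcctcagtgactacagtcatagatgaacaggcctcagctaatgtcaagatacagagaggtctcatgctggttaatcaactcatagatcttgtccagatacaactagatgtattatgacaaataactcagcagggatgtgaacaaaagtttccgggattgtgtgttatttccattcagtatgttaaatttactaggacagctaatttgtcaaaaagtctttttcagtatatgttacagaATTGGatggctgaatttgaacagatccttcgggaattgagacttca
Aldh6a1 start 1: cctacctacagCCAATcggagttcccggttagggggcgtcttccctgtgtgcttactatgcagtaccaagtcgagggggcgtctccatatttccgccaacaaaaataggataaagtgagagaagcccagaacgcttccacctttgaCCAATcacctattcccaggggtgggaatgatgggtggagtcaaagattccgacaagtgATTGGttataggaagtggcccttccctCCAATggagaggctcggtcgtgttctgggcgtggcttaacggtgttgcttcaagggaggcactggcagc
Aldh6a1 start 2: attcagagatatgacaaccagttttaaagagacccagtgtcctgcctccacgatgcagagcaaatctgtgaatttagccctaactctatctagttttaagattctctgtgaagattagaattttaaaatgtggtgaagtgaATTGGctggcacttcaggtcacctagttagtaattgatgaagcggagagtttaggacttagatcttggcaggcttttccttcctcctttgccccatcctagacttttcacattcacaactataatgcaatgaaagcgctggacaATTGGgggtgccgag
The first Aldh6a1 start had 4 matches of CCAAT and the second had 2, with no match of the other motifs. The first Bckdhb start had 2 matches of CCAAT and 3 of the GC box, and the second had 1 match of CCAAT. Of all 32851 promoters in the table, 37.4% held CCAAT, 35.7% the GC box, 13.6% the TATA box and 8.30% the STAT5 site. The STAT5 site, the motif of a factor that growth hormone activates in liver, matched once each at Ivd and Pccb, and neither start of Bcat2 held any of these motifs. A match is a description of the letters and not of binding.

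Before any scaling the arrays differed in brightness. The median raw bead signal averaged 102 ± 7.26 in Rapa females and 104 ± 7.85 in control females (SD). Rapa-2 males averaged 89.0 ± 4.23, Rapa-1 males 124 ± 5.37 and control males 130 ± 10.6. The share of probes detected (detection p under 0.05) averaged 39.9% in Rapa females, 43.6% in control females. Rapa-2 males averaged 42.1%, Rapa-1 males 42.5% and control males 43.8%. Of 6 hepatocyte markers, 5 were among the tested probes, and in Rapa females 2 of those 5 were called lower and 0 higher than in control females, where 18.5% of all tested probes were called lower. The median log2 difference of those 5 markers was −0.14 in Rapa females against control females and −0.21 in Rapa-2 males against control males, beside 0.03 and 0.09 over all tested probes in that order. None of 4 skeletal muscle markers was detected on more than 2 arrays. Of 4 adipocyte and 4 pancreas acinar markers, 1 each was tested. Both were called higher in Rapa females than in control females, with log2 differences of 0.26 and 0.30, where 20% of all tested probes were called higher. All 4 neutrophil markers were lower in Rapa females than in control females, with a median log2 difference of −1.90, and all 4 were higher in control females than in males on the control diet, with a median of 1.48 (19.5% of all tested probes were called higher). The summed signal of those 4 genes ran between 429 and 21759 in Rapa females, and between 615 and 46336 in control females. Brightness and detection were set against member probes in the fits and correlations given beside the results, and the part of other cells was not tested.

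Every level below is a quantile-normalized log2 signal of 1 probe, and levels of different genes were not set against each other. A probe was called when the adjusted p of limma's moderated test was under 0.05 and the change was over 15%. In Rapa females 11 of the 12 tested member probes were called against control females, 6 higher and 5 lower, whereas 38.4% of all tested probes were called. The median log2 difference of the 12 probes was 0.08, against 0.03 for all tested probes. The calls went both ways among subunits of 1 complex and among probes of 1 gene.

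The lower calls in Rapa females were led by Bckdhb, the beta subunit of the decarboxylase. Its lowest, median and highest signals were 8.21, 8.54 and 8.95 in Rapa females, against 8.98, 9.45 and 10.20 in control females. All 21 Rapa females lay under the lowest control female, and Bckdhb was the only 1 of the 12 member probes whose groups did not overlap, a pattern that 0.490% of all tested probes showed. The log2 difference was −0.94 ± 0.088 (SE), a fold of 0.52, with an adjusted p of 5.44e-11 by limma. Aldh6a1 gave 7.07, 7.88 and 8.28 in Rapa females and 7.45, 8.35 and 8.93 in control females. All 21 Rapa females were under the control female mean, although the ranges overlapped, and the log2 difference was −0.51 ± 0.11 (adjusted p = 0.000137 by limma). The brightest Dbt probe, ILMN_2820948, gave 8.78, 9.43 and 9.82 in Rapa females and 8.96, 9.69 and 10.19 in control females, a log2 difference of −0.32 ± 0.10 (adjusted p = 0.00611 by limma).

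**Figure D1:**
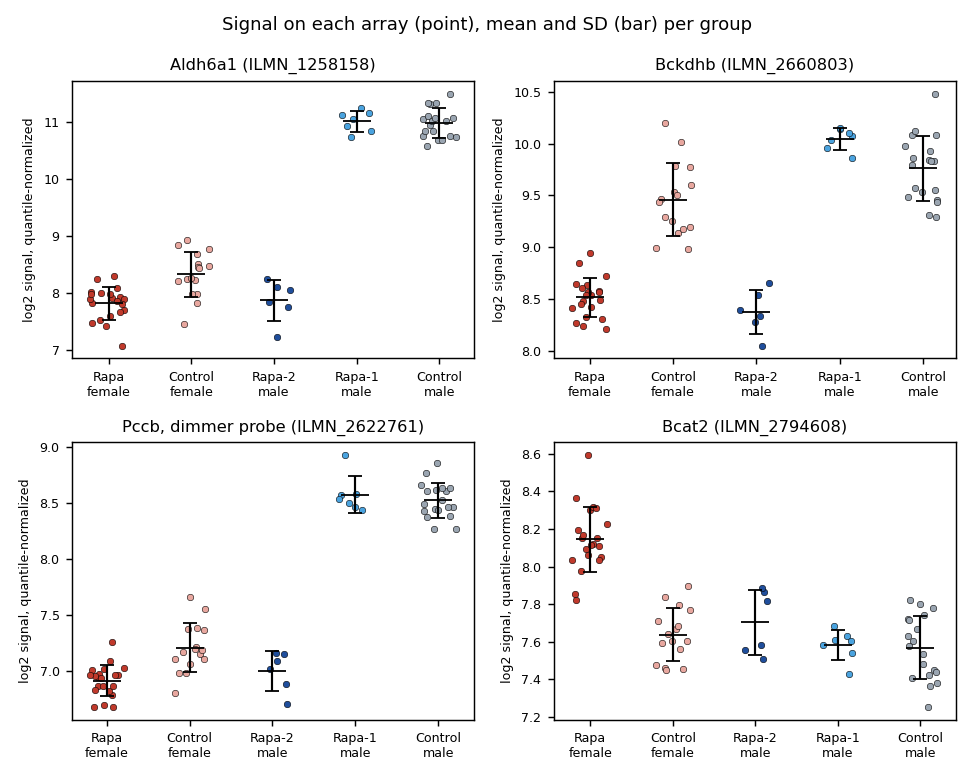
Quantile-normalized log2 signal of 4 member probes on each of the 69 arrays (points), with the mean and SD of each title group (bars). Aldh6a1 and the dimmer Pccb probe were low in Rapa females, control females and Rapa-2 males, Bckdhb was low in Rapa females and Rapa-2 males, and Bcat2 was high in Rapa females.

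Bcat2 moved the other way and had the smallest adjusted p of the higher calls. Its lowest, median and highest signals were 7.82, 8.12 and 8.59 in Rapa females and 7.45, 7.62 and 7.90 in control females. Of the 21 Rapa females, 19 lay above the highest control female. The log2 difference was 0.51 ± 0.053, a fold of 1.42 (adjusted p = 6.30e-10 by limma).

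The remaining higher calls were smaller, with log2 differences between 0.22 and 0.27. Bckdha, the alpha subunit that pairs with Bckdhb in the enzyme, gave 10.94, 11.51 and 11.71 in Rapa females against 10.51, 11.28 and 11.67 in control females, a log2 difference of 0.22 ± 0.078 (adjusted p = 0.0177 by limma). Hibadh gave 13.28, 13.95 and 14.26 in Rapa females and 12.97, 13.62 and 14.15 in control females, a log2 difference of 0.26 ± 0.088 (adjusted p = 0.0126 by limma). Ivd gave 10.39, 11.05 and 11.21 in Rapa females and 9.96, 10.76 and 11.12 in control females, a log2 difference of 0.24 ± 0.098 (adjusted p = 0.0379 by limma). The ranges of the groups overlapped for these 3 genes and for the brighter probes of Pcca and Pccb, which complete the higher calls.

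These 5 small increases depended on the scaling. With each array scaled to its median in place of quantile normalization, the median over all tested probes in Rapa females against control females was −0.20, the calls over all probes split into 76 higher and 5646 lower, in place of 2483 higher and 2299 lower, and the 5 values were −0.17 for Bckdha, −0.10 for Hibadh, −0.19 for Ivd, −0.23 for Pcca ILMN_2921698 and −0.16 for Pccb ILMN_2875938, none of them called. Under that scaling Bcat2 was 0.17 and not called, since the change was not over 15%, while Bckdhb was −1.37 and called. With detection (the share of probes detected) as covariate, 3 of the 12 probes stayed past the thresholds, beside 13.2% of all tested probes. In that fit Bckdha was −0.17 and Pcca ILMN_2921698 −0.11.

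Within single groups, 72 relations of a member probe with the raw array median or the share of probes detected were computed, over Rapa females, control females and control males. Pearson's r passed after adjustment over the 72 for 2 of them, both with detection across the 16 control females. For Bckdha r was −0.82 (permutation p = 0.00014, adjusted p = 0.0101) and Spearman's rho −0.72 (permutation p = 0.00214, adjusted p = 0.0718), with r of −0.66 without the 2 arrays farthest from the median detection. For Pcca ILMN_2921698 r was −0.74 (permutation p = 0.00119, adjusted p = 0.0428) and rho −0.67 (permutation p = 0.00612, adjusted p = 0.110), with r of −0.64 without those 2 arrays. Control females that detected fewer probes thus had higher signals of both. Across the 21 Rapa females r with detection was −0.41 for Bckdha (permutation p = 0.0619, adjusted p = 0.186) and −0.26 for Pcca ILMN_2921698 (permutation p = 0.265, adjusted p = 0.501).

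**Figure D2:**
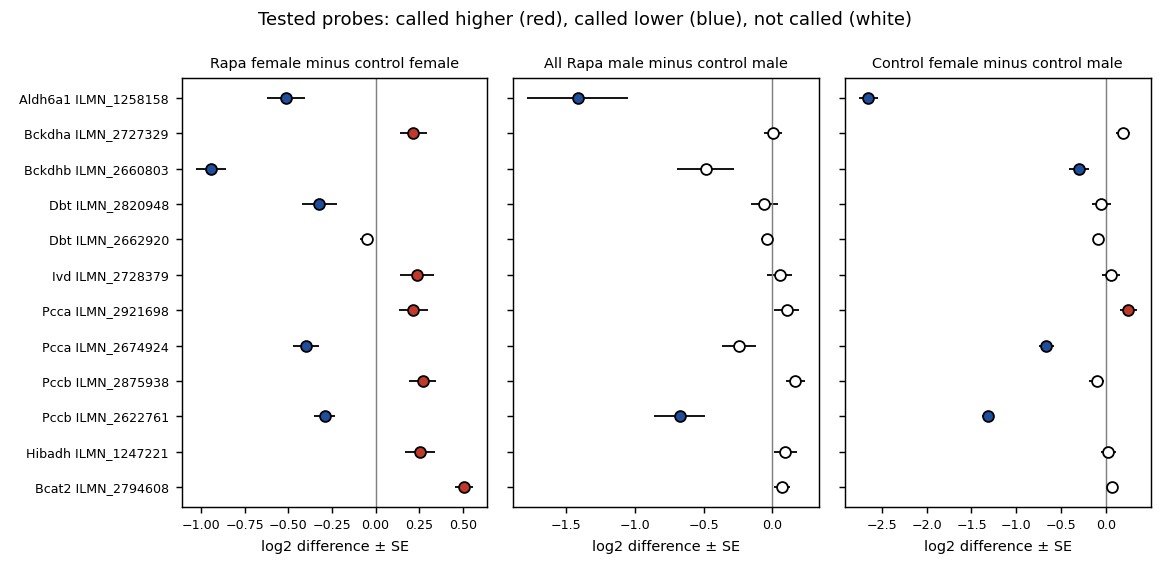
Log2 differences (points) with their standard errors (lines) for the 12 tested member probes in 3 comparisons, with a separate horizontal scale in each panel. Rapa females had 6 probes called higher (red) and 5 called lower (blue), all Rapa males had 2 called lower, and control females had 1 called higher and 4 called lower against control males.

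Between the sexes on the control diet, Aldh6a1 had the largest difference of the members. Its lowest, median and highest signals were 7.45, 8.35 and 8.93 in control females, against 10.57, 11.01 and 11.49 in control males. All 16 control females lay under the lowest control male, and the log2 difference was −2.65 ± 0.11, a fold of 0.159 (adjusted p = 1.26e-21 by limma). The dimmer Pccb probe, ILMN_2622761, also separated the sexes, with 6.80, 7.17 and 7.65 in control females and 8.26, 8.49 and 8.85 in control males. It was detected on 15 of 16 control female arrays and on all 19 control male arrays, and the log2 difference was −1.32 ± 0.063 (adjusted p = 1.29e-19 by limma). These were 2 of the 12 tested member probes, whereas the sexes did not overlap for 5.51% of all tested probes. Raw array medians ran between 92.4 and 119 in control females and between 113.8 and 146 in control males. Sex and brightness can therefore be told apart only in part. With the raw array median as covariate 4 of the 12 member probes were called, all lower, against 31.7% of all tested probes.

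Bckdhb was lower in control females as well, at 8.98, 9.45 and 10.20 against 9.29, 9.83 and 10.48 in control males, with overlapping ranges and a log2 difference of −0.30 ± 0.11 (adjusted p = 0.0194 by limma). Together with both Pcca probes, 5 of the 12 member probes were called between control females and control males, 1 higher and 4 lower, against 35.6% of all tested probes. Bckdha had a log2 difference of 0.19 and an adjusted p of 0.0288 by limma, under the minimum change. Bcat2, Ivd, Hibadh and the brighter Dbt and Pccb probes had log2 differences between −0.10 and 0.07 and were not called.

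Between all Rapa males and control males 2 of the 12 member probes were called, both lower, against 10.6% of all tested probes. Aldh6a1 gave 7.22, 10.74 and 11.24 in all Rapa males, against 10.57, 11.01 and 11.49 in control males, a log2 difference of −1.42 ± 0.37 (adjusted p = 0.0111 by limma). Pccb ILMN_2622761 gave 6.70, 8.44 and 8.92 in all Rapa males, against 8.26, 8.49 and 8.85 in control males, a log2 difference of −0.67 ± 0.19 (adjusted p = 0.0154 by limma). For both probes 6 of the 13 Rapa males lay under the lowest control male, and the other 7 lay within the control range apart from 1 Pccb value above it. Bckdhb had a log2 difference of −0.49 ± 0.21 (adjusted p = 0.103 by limma), again with 6 Rapa males under the control range. With the raw median of each array as covariate the values were −0.06 for Aldh6a1 and 0.00 for Pccb ILMN_2622761, neither called, and both calls were also lost in the methods' t-test, run here with unequal variances, a form that the methods do not state, and with control males of a single run of animal numbers.

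The 6 low arrays were the Rapa-2 males in each case. Aldh6a1 was 7.22, 7.94 and 8.23 in Rapa-2 males, against 10.74, 11.05 and 11.24 in Rapa-1 males. The mean of Rapa-2 males was 7.86 ± 0.36 (SD, n = 6), next to 7.81 ± 0.29 in Rapa females (n = 21), and these neighbours in the order of groups did not differ beyond their spread. Bckdhb was 8.05, 8.37 and 8.65 in Rapa-2 males and 9.86, 10.07 and 10.15 in Rapa-1 males. For Bckdhb the Rapa-2 male mean of 8.38 ± 0.21 and the Rapa female mean of 8.52 ± 0.19 were again neighbours within their spread, whereas control females stood at 9.46 ± 0.35. Pccb ILMN_2622761 was 6.70, 7.05 and 7.16 in Rapa-2 males, where 4 of 6 arrays detected it, and 8.44, 8.53 and 8.92 in Rapa-1 males.

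Between Rapa-2 males and control males the log2 differences were −3.11 for Aldh6a1, −1.39 for Bckdhb, −1.52 for Pccb ILMN_2622761 and −0.67 for Pcca ILMN_2674924, and 0.29 for Hibadh and 0.23 for Pccb ILMN_2875938. Rapa-2 and control males did not overlap for 3 member probes (Aldh6a1, Bckdhb and Pccb ILMN_2622761), as for 11.6% of all tested probes. For Bcat2, Rapa-2 males gave 7.51, 7.70 and 7.88, Rapa-1 males 7.43, 7.61 and 7.68, and control males 7.25, 7.58 and 7.82, with overlapping ranges. In Rapa-1 males the log2 differences of the member probes from control males lay between −0.07 for Hibadh and 0.28 for Bckdhb. Both male comparisons use the same 19 control males.

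**Figure D3:**
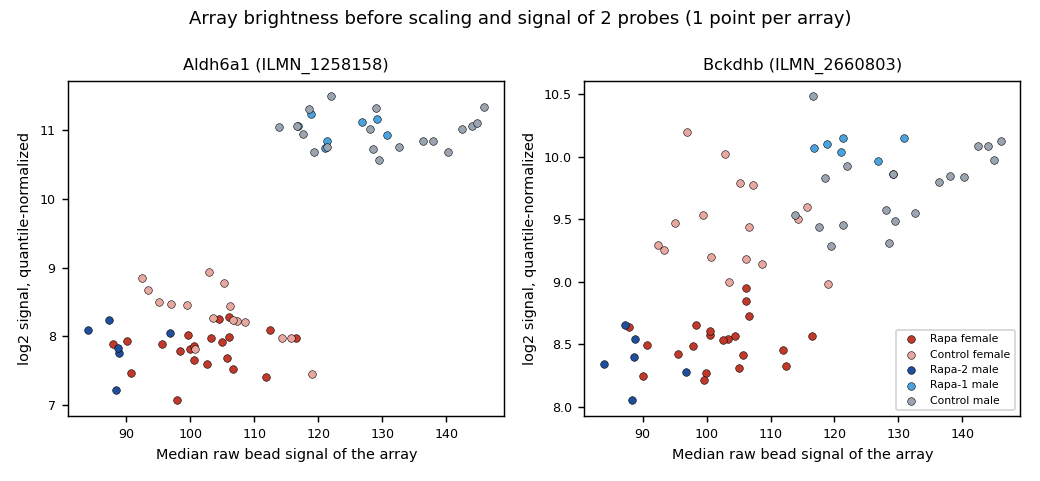
Median raw bead signal of each array before scaling (horizontal axis) and quantile-normalized log2 signal of Aldh6a1 and of Bckdhb (vertical axes), 1 point per array. The 6 Rapa-2 males (raw medians between 84.0 and 96.8) lie with the Rapa females (between 87.9 and 116.5) for both probes, and all 19 control males (between 113.8 and 146) lie above them, while control females at the same raw medians as Rapa females lie higher for Bckdhb.

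The difference of the diet effect between the sexes was called for 1 of the 12 member probes, Bcat2, with 20.4% of all tested probes called. The diet difference of Bcat2 was larger in females than in males by 0.44 ± 0.078 on the log2 scale (adjusted p = 0.000104 by limma). In males Bcat2 differed by 0.07 ± 0.057 between all Rapa and control males (adjusted p = 0.405 by limma). For Aldh6a1 the interaction was 0.90 ± 0.37 (adjusted p = 0.0679 by limma) and for Bckdhb −0.46 ± 0.22 (adjusted p = 0.124 by limma). Both values moved with the Rapa males that entered. As a description, with no test, Aldh6a1 was 2.60 and Bckdhb 0.44 with Rapa-2 males alone, and Aldh6a1 was −0.55 and Bckdhb −1.23 with Rapa-1 males alone. Bcat2 was 0.37 with Rapa-2 males alone and 0.49 with Rapa-1 males alone. With median scaling and all Rapa males the interaction of Bcat2 was 0.16 (adjusted p = 0.138 by limma).

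Genes with more than 1 probe allowed the probes to be set against each other on the same array. For Pcca, the brighter probe ILMN_2921698 was higher in Rapa females than in control females (10.19 ± 0.23 against 9.97 ± 0.29, log2 difference 0.22, adjusted p = 0.0250 by limma), and the other probe ILMN_2674924 was lower (8.44 ± 0.22 against 8.84 ± 0.25, log2 difference −0.40, adjusted p = 3.03e-05 by limma). For Pccb, ILMN_2875938 was higher in Rapa females (10.84 ± 0.16 against 10.57 ± 0.31 in control females, log2 difference 0.27, adjusted p = 0.00296 by limma) and ILMN_2622761 was lower (6.91 ± 0.14 against 7.20 ± 0.22, log2 difference −0.29, adjusted p = 6.73e-05 by limma). The dimmer Pccb probe was detected on 8 of 21 Rapa female arrays and 15 of 16 control female arrays. Of the 2190 genes with at least 2 tested probes, 6.30% had calls in both directions in this comparison.

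Between control females and control males the Pcca probes split again. ILMN_2921698 was higher in control females (9.97 ± 0.29 against 9.72 ± 0.27 in control males, log2 difference 0.25, adjusted p = 0.0198 by limma) and ILMN_2674924 was lower (8.84 ± 0.25 against 9.50 ± 0.24, log2 difference −0.66, adjusted p = 1.72e-08 by limma). Calls in both directions were found for 5.34% of the genes with at least 2 tested probes. The Pccb probes did not split in this way, since ILMN_2875938 had a log2 difference of −0.10 (adjusted p = 0.312 by limma) beside the −1.32 of ILMN_2622761.

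Subtracting the probes within each array gave 1 value per mouse. For Pcca the brighter minus the other probe had a lowest, median and highest value of 1.14, 1.73 and 2.05 in Rapa females and 0.76, 1.14 and 1.29 in control females. Rapa-2 males gave 0.95, 1.09 and 1.46, Rapa-1 males −0.12, 0.08 and 0.30, and control males −0.18, 0.20 and 0.52. Of the 21 Rapa females 20 lay above the highest control female, and all control females and Rapa-2 males lay above the highest control male. The change of the pair difference was 0.62 in Rapa females against control females (two-sided permutation p = 1e-05, the smallest that 100000 resamples give) and 0.92 in control females against control males (permutation p = 1e-05). In all Rapa males against control males it was 0.34 (permutation p = 0.017, but adjusted p = 0.0552 by limma over all genes with 2 or more tested probes), and it turned to −0.05 with the raw array median as covariate.

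For Pccb the pair difference was 3.57, 3.92 and 4.30 in Rapa females and 2.69, 3.39 and 3.74 in control females. Rapa-2 males gave 3.85, 3.90 and 3.94, Rapa-1 males 1.90, 2.26 and 2.39, and control males 1.62, 2.13 and 2.53. All Rapa-2 males lay above every control female, and all control females above every control male. The change was 0.56 in Rapa females against control females (permutation p = 1e-05), 0.84 in all Rapa males against control males (permutation p = 0.00046) and 1.22 in control females against control males (permutation p = 1e-05). In Rapa females it was 0.22 with median scaling and 0.18 with detection as covariate, neither past the threshold of limma. In all Rapa males the call of limma was lost with either run of control males, with detection as covariate, and with the raw array median as covariate, where the value was 0.088. With neqc background correction the changes were 0.96 in Rapa females, 1.34 in all Rapa males and 2.04 in control females against control males, all past that threshold. Pair differences past an adjusted p of 0.05 by limma were found for 57.2% of the 2190 genes in Rapa females against control females, 22.9% in all Rapa males against control males and 57.2% in control females against control males, so such differences were common among genes with several probes.

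**Figure D4:**
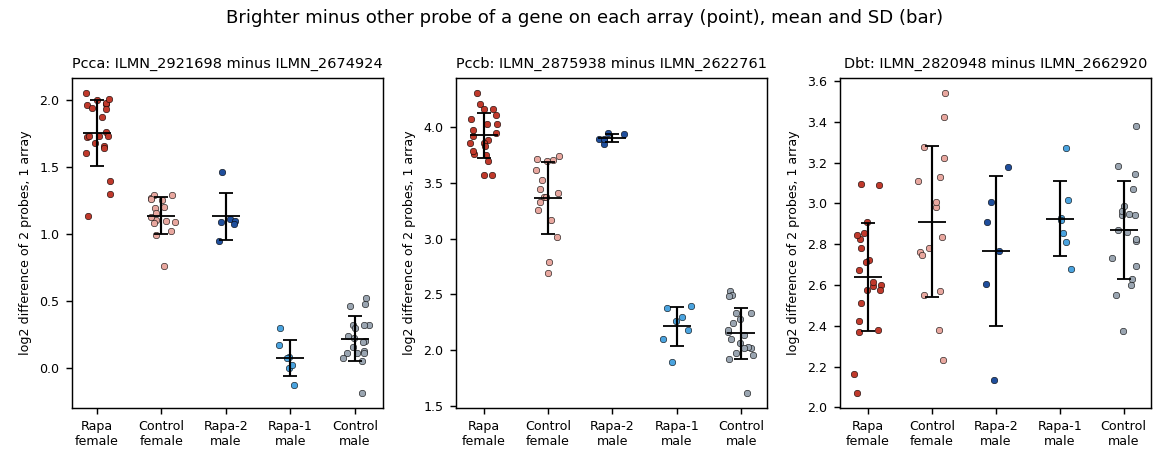
Log2 signal of the brighter minus the other probe of Pcca, Pccb and Dbt on each array (points), with the mean and SD of each title group (bars). Pcca lay highest in Rapa females and lowest in Rapa-1 and control males, Pccb was high in Rapa females and Rapa-2 males, and the Dbt values of all groups overlapped.

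The Dbt probes other than ILMN_2820948 were detected on few arrays. ILMN_2662920 was detected on 0 of 21 Rapa female, 2 of 16 control female, 0 of 6 Rapa-2 male, 4 of 7 Rapa-1 male and 8 of 19 control male arrays, and ILMN_1242012 on 3 arrays in all, so it was not tested. The pair difference of the 2 tested Dbt probes changed by −0.27 in Rapa females against control females (permutation p = 0.013), where ILMN_2662920 was detected on 0 and 2 arrays, by −0.02 in all Rapa males against control males (permutation p = 0.86) and by 0.04 in control females against control males (permutation p = 0.70). The value in Rapa females was −0.74 with median scaling (adjusted p = 1.91e-05 by limma), and it did not pass limma's threshold with the upper run of control females (−0.20), detection as covariate (−0.26) or neqc (−0.25).

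Within a group, the paired probes of Pcca followed each other in controls. Pearson's r between the Pcca probes was 0.39 across 21 Rapa females (Spearman's rho 0.44, permutation p = 0.0773 for r, adjusted p = 0.174), 0.88 across 16 control females (rho 0.80, permutation p = 8e-05, adjusted p = 0.00036) and 0.78 across 19 control males (rho 0.73, permutation p = 6e-05, adjusted p = 0.00036). Without the 2 arrays farthest from the median of the brighter probe, r was 0.43 in Rapa females, 0.80 in control females and 0.63 in control males. The permutation p-values for rho were 0.0512 in Rapa females, 0.00038 in control females and 0.00062 in control males (adjusted p = 0.115, 0.00279 and 0.00279 in that order of groups). None of the 6 relations for Pccb and Dbt passed after adjustment over the 9 relations computed, with r between 0.12 and 0.50, and whether the value of r differs between groups was not tested.

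Over all 69 arrays, the genes most like Aldh6a1 among one probe per gene were Baat, which conjugates bile acids, Chp1 and Atp5a1, a subunit of ATP synthase, each with a Pearson r of 0.99. For Bckdhb they were Glrx2, Ghitm and Ecpas, each with r of 0.93, and for Bcat2 they were Mospd3 (0.89), Hgs (0.89) and Drg2 (0.88). These arrays share the 5 groups, so the values mostly describe the differences between groups. With the mean of each group removed, the nearest gene was Slc25a16 (0.86) for Aldh6a1, Iyd (0.76) for Bckdhb and Ppp2r5d (0.72) for Bcat2. Ivd, an enzyme of leucine breakdown, was nearest to Cyp4f15 (0.83), Hibadh to Car3 (0.85), Bckdha to Acads (0.81), Dbt to Cth (0.79), Pcca to Slc47a1 (0.83) and Pccb to Vdac1 (0.79). Among the members themselves the group-centred r ran between −0.35 for Bcat2 with Bckdhb and 0.74 for Ivd with Dbt, and Bckdhb with Bckdha was −0.04.

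Of 33 other genes of the pathway, 22 had a tested probe. By the brightest probe, 8 were called higher and 5 lower in Rapa females than in control females (38.4% of all tested probes were called), 2 higher and 4 lower in all Rapa males than in control males (10.6%), and 4 higher and 9 lower in control females against control males (35.6%). The kinase of the complex, Bckdk, which phosphorylates and so turns off the decarboxylase, was 8.34, 8.61 and 8.76 in Rapa females and 7.52, 8.26 and 8.46 in control females, a log2 difference of 0.37 (adjusted p = 2.63e-06 by limma), and its other probe gave 0.38. Ppm1k, the phosphatase that reverses Bckdk, had a log2 difference of 0.04 in Rapa females and was not called in any comparison. Dld, the dehydrogenase subunit shared with other keto acid complexes, was detected on 0 of 21 Rapa female, 3 of 16 control female, 0 of 6 Rapa-2 male, 7 of 7 Rapa-1 male and 19 of 19 control male arrays. It was at least 1.49-fold lower in Rapa-2 males than in control males, with the dim arrays set at the lowest detected signal. The fitted log2 difference between control females and control males was −0.66 (adjusted p = 6.04e-13 by limma), with most of the control female signals not above background. Hibch, of the valine branch, was detected on no array.

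Against control males, the largest differences among these other genes in control females and in all Rapa males were in Hadhb, Acadsb and Hsd17b10. Hadhb, the thiolase subunit of the trifunctional protein, was 7.39, 8.00 and 8.91 in Rapa females and 7.75, 8.57 and 9.37 in control females. Rapa-2 males gave 7.63, 8.13 and 8.21, Rapa-1 males 10.64, 10.88 and 11.24, and control males 10.59, 11.08 and 11.73. Its log2 difference was −0.59 in Rapa females against control females, −1.51 in all Rapa males against control males and −2.53 in control females against control males, with adjusted p-values of 0.000116, 0.00545 and 6.12e-19 by limma in that order. Acadsb, the isoleucine branch dehydrogenase, had log2 differences of −0.23, −0.73 and −1.94 in the same order, of which the value in all Rapa males was not called. Hsd17b10, of the same branch, had −0.56, −0.63 and −1.42, all called. Mccc1, the biotin-bearing subunit of methylcrotonyl-CoA carboxylase, had a fitted log2 difference of −0.83 between control females and control males, with the control female signal above background on 2 of 16 arrays.

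Carriers and regulators were also measured. Slc25a44, the mitochondrial carrier of branched-chain amino acids, was 9.57, 10.19 and 10.67 in Rapa females and 8.86, 9.76 and 10.29 in control females, a log2 difference of 0.49 (adjusted p = 0.000265 by limma). It was also higher in all Rapa males than in control males, by 0.35 (adjusted p = 0.0189 by limma). Abat, which acts on the valine branch and on GABA, was lower in Rapa females by its brightest probe (log2 difference −0.65, adjusted p = 2.62e-05 by limma), whereas another of its probes was higher by 0.29 and the remaining probe differed by 0.04. Klf15, a transcription factor of amino acid breakdown, was lower in all Rapa males than in control males by −0.35 (adjusted p = 0.0127 by limma) and was detected on 0 of 6 Rapa-2 male arrays. Differences of these other pathway genes are given from the main fit alone. Over all tested probes, higher calls in Rapa females numbered 2483 in that fit and 76 with median scaling. Calls in all Rapa males numbered 1317, and 20 with the raw array median as covariate.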

How the data were processed

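The 13 member probes and the lists of other pathway genes and cell type markers were chosen with earlier results of these data known. The authors made biotin-labelled cRNA from total liver RNA, hybridized the cRNA to Illumina bead arrays and read these with the scanner's software, after which log2 transformation and quantile normalization were applied. The deposited raw table held the average bead intensity of each probe as the authors exported it, without scaling, and 0 of its signals were at or below 0. The detection column deposited by the authors was a fraction equal to 1 minus the detection p. The authors' processed table held log2 values, which correlated with the recomputed ones at r = 0.999918 on every array. The genome build of the probes was not given in the sources used here, and promoters come from a RefSeq table on GRCm38.p6.

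Here quantile normalization was applied to the log2 intensities of all probes together, and testing was limited to the 12442 probes detected (p under 0.05) on 13 or more arrays. Probes were named through the platform annotation, updated by gene identifier from RefSeq, with 23978 probes named and 1719 unnamed. Each pair of groups was fitted with limma 3.58.1 in R 4.3.3, with two-sided moderated tests and Benjamini-Hochberg adjustment over all tested probes, and the diet by sex interaction used all 69 arrays and an adjusted p under 0.05. Pair differences were tested by permutation over arrays with 100000 resamples, and by limma over 2190 genes in place of an adjustment over the few pairs alone. Fits were tested on simulated data. Named genes were all member probes, Bckdk, Ppm1k, Dld and Hibch, the 4 largest called differences per comparison among the other pathway genes, and for likeness the 3 genes with the highest r. Acad8 was named after its interaction had been seen. The number of arrays limits the precision.

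Alternatives were background correction by neqc (offset 16), no detection filter, a stricter one (0.01), the authors' processed values, median scaling, the methods' t-test (with unequal variances, which the methods do not state), 1 model of all groups, no minimum change, a 1.5-fold minimum, the raw array median or the percentage of detected probes as a covariate, control animals of 1 run of animal numbers, the replicate number as a block, and leaving out Rapa females 1 and 2 or Rapa-1 or Rapa-2 males. For the probe pairs, the limma fits, the covariates and the control runs were chosen after seeing the data, as were the separate fits of Rapa-2 and Rapa-1 males as alternatives for all Rapa males. No calls are reported from fits that use that division. The labels give no chip, date or batch.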

Additional observations from a re-analysis of the deposited data

Results flagged for a closer look

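Within the groups of Rapa-2 and Rapa-1 males, 26 sets of values of 1 member probe were examined for an array far from the others, and 2 were found, where chance gives about 1 in 20. Pcca ILMN_2921698 was 9.40 in Rapa-2 male 4, with the other Rapa-2 males between 9.96 and 10.19. Pccb ILMN_2622761 was 8.92 in Rapa-1 male 5, with the other Rapa-1 males between 8.44 and 8.58.

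The diet difference was larger in females than in males for Bcat2, by 0.44 on the log2 scale, past the threshold of limma's interaction test. That call was lost with median scaling, as given above. Among the 22 other pathway genes tested, the interaction, females minus males, passed for 5, a share near the 20.4% of all tested probes. They were Acat1, the mitochondrial acetoacetyl-CoA thiolase (0.54), Mmadhc of the cobalamin pathway (0.40), Bckdk (0.33), Acad8, the isobutyryl-CoA dehydrogenase (0.32) and Abat (−0.46). These values are those of the brightest probe of each gene. The other Acad8 probe gave −0.03 and the other Abat probes −0.07 and 0.34, none past the threshold. The other Bckdk probe gave 0.33 and passed. All of these values are from the main fit alone. Over all tested probes, interactions called higher numbered 1390 in that fit and 292 with median scaling.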

How the results depend on the processing

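For the 19 called differences of member probes outside the Rapa-2 and Rapa-1 comparisons, the values under alternatives kept direction and call 214 times, kept direction without the call 51 times and had the opposite sign 8 times, with 0 of those 8 called. Differences not called gave 15 calls in the same direction and 1 in the opposite one. Direction was turned in Rapa females against control females by median scaling for Bckdha (−0.17), Hibadh (−0.10), Ivd (−0.19), Pcca ILMN_2921698 (−0.23) and Pccb ILMN_2875938 (−0.16), and by the share of detected probes as covariate for Bckdha (−0.17) and Pcca ILMN_2921698 (−0.11). With the raw array median as covariate, Pccb ILMN_2622761 was 0.00195 in all Rapa males and Ivd was −0.41 in control females against control males. In the interaction, given with no test, Bckdhb was 0.44 without Rapa-1 males, and Aldh6a1 was −0.55 and Pccb ILMN_2622761 −0.34 without Rapa-2 males. Of 12 member probes, 11 were called in Rapa females, beside 38.4% of all tested probes. This became 5 with median scaling (46% of all tested probes) and 1 with a 1.5-fold minimum (6%). It became 3 with the share of detected probes (13.2%) and 6 with control females of the upper run of animal numbers (29.6%). The 2 calls in all Rapa males became 4 in 1 model of all groups (12.5% of all tested probes). They became 0 with the methods' t-test (3.77%), the raw array median (0.161%), the lower control run (1.7%) or the upper one (1.45%). The 5 calls in control females against control males became 3 with a 1.5-fold minimum (8.13% of tested probes) or the lower control run (26.3%). The single interaction call, on Bcat2, became 3 calls with median scaling, where 34.2% of all tested probes were called. The count became 6 with the raw array median (34.8%) and 2 with the lower control run (18.6%). The pair difference of Pccb in Rapa females fell to 0.22 with median scaling and 0.18 with the share of detected probes, and in all Rapa males it was 0.93 and 0.79 with the lower and the upper control run, 0.088 with the raw array median and 0.72 with the share of detected probes. That of Dbt in Rapa females was −0.20 with the upper control run, −0.26 with the share of detected probes and −0.25 with neqc. None of these passed, and the cause was not tested.

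The replicate numbers of the titles were not used to pair the mice in the main fits. Same-numbered arrays had deviations that correlated over 0.1 in 5 of 16 pairs of Rapa and control females. The count was 3 of 6 for Rapa-2 and control males, 2 of 7 for Rapa-1 and control males, and 10 of 16 for control females and control males. Arrays of different numbers were not compared in this way, so the counts cannot decide whether the numbers pair the mice. With the replicate block, 9 of the 12 member probes were called in Rapa females against control females, beside 37.4% of all tested probes. The calls numbered 0 in all Rapa males (0.635%) and 3 in control females against control males (36.2%).

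Detection limits the dim probes. Pccb ILMN_2622761 was detected on 53 arrays and Dbt ILMN_2662920 on 14 of 69, so their signals in Rapa females and Rapa-2 males lie near background. The raw medians of Rapa-2 males (84.0 to 96.8) and control males (113.8 to 146) did not overlap, so brightness and group cannot be told apart there. Rapa-1 males (116.8 to 130.8) did not overlap Rapa-2 males either. The animal numbers of Rapa-1 males also all lie below those of Rapa-2 males. Division, brightness and animal number therefore cannot be told apart among the Rapa males, and the part of each was not tested. Within each sex the animal numbers of Rapa mice all lie below those of control mice. Diet and animal number thus cannot be told apart in the diet comparisons. Control females (92.4 to 119) overlapped control males only in part, so sex and brightness can be told apart only in part. The labels tie no array to a chip or a day.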
